A study of Homo sapiens with 4 samples.

Results

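Cadherins are calcium-dependent adhesion proteins that bind each other across the gap between neighbouring cells. The 10 genes described here are CDH1, CDH2, CDH3, CDH4, CDH5, CDH6, CDH10, CDH11, CDH13 and CDH24, found by symbol among 23394 genes. The names were selected on earlier knowledge of these same libraries, including their knockdown against control values, so the members' changes below are a description and support nothing beyond it. RNA from SUM159, a mesenchymal-like breast cancer cell line, was sequenced in 4 libraries of polyadenylated RNA. The cells were grown in F12 medium with serum, insulin and hydrocortisone. The 2 control libraries came from cells given DMSO, labelled DMSO-Control, and the 2 knockdown libraries from cells given doxycycline, labelled Doxycyclin, which induced a small interfering RNA against SHARP. Doxycycline went only to the knockdown cells, so the drug and the knockdown cannot be told apart. Separate cultures are not stated for the replicates, so p-values rest on differences among these libraries that may be technical only. SHARP is another name for SPEN, a corepressor of the Notch pathway.

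Classical cadherins carry a cytoplasmic tail that binds p120 catenin and beta-catenin, through which alpha-catenin joins the junction to actin. Type I members, here CDH1, CDH2, CDH3 and CDH4, make strong junctions, and type II members, here CDH5, CDH6, CDH10, CDH11 and CDH24, differ from them in the outermost extracellular domain. CDH13 (T-cadherin) is held in the membrane by a lipid anchor and has no such tail, so it is not a classical cadherin in the strict sense, although it is listed with them. Loss of CDH1 (E-cadherin) with gain of CDH2 (N-cadherin) is a textbook mark of the epithelial to mesenchymal transition in breast cancer.

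The libraries held 15641296 to 17197715 counts, and 17237 to 17308 genes were detected in each. SPEN counts were 3129 and 3208 in the controls against 1660 and 1666 after knockdown, a log2 fold change of -0.78 (SE 0.035). Levels are given as CPM, a gene's counts relative to the TMM-scaled library size of the edgeR fit, with the SD of 2 libraries, and fold changes are knockdown over control. A gene is called when edgeR's quasi-likelihood test gives an adjusted p under 0.05 over all 13915 tested genes. Under that rule 50.1% of tested genes were called, 25.1% higher and 24.9% lower. The cell line label was set against marker genes. The mesenchymal genes VIM, FN1, ZEB1, SPARC, AXL and CD44 summed to 6704 to 6705 CPM in the controls and 9081 to 9134 CPM in the knockdown, and all 6 were called higher. In the controls and the knockdown, most of that sum was VIM (means of 3257 and 5020 CPM) and FN1 (2369 and 2735 CPM). Of 12 epithelial markers, 7 had at most 3 counts in any library, with KRT19, GRHL2 and OVOL1 at 0 in all 4, while the list summed to 308 to 321 CPM in the controls and 334 to 339 CPM in the knockdown because of KRT8 and KRT18. Of the 4 tested epithelial markers, KRT8 was called higher and ESRP1 lower. ESR1 and PGR, the luminal hormone receptors, had 1 to 3 and 0 to 5 counts. The 3 tested genes of the luminal list, ERBB2, GATA3 and FOXA1, included 2 called lower, ERBB2 and GATA3. That list summed to 105 CPM in both controls and to 82.3 and 88.4 CPM in the knockdown. Most of it was ERBB2, at 89.8 CPM on average in the controls and 73.8 CPM in the knockdown. The sum of the leukocyte markers was 36.4 and 40.4 CPM in the controls and 46.2 and 46.5 CPM in the knockdown, most of it CD68, which was called higher. LYZ, at 5.76 CPM on average in the controls and 6.45 CPM in the knockdown, and CD14, with 3 to 14 counts, were tested and not called. PTPRC had 4 to 9 counts, and MS4A1, a B cell marker, was at 0 in all 4 libraries. The part of these marker differences in the cadherin values was not tested.

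Only 4 of the 10 genes, CDH2, CDH6, CDH13 and CDH24, had enough counts to be tested, and CDH6 alone among them was called. It was called lower, and 0 were called higher by edgeR, DESeq2 or limma-voom, with 1 (CDH13) higher at an unadjusted p under 0.05 in the edgeR test. Beside the 24.9% of all tested genes called lower, nothing is read from 1 of 4. The median log2 fold change was 0.046 over these 4 genes and 0.0012 over all tested genes. The 2 groups of libraries did not overlap for CDH6 and CDH13, 2 of the 4, against 74.3% of all tested genes. The other 6 genes held at most 10 counts in any library and were not tested. Reads of CDH13 and CDH2 made up 95.4% of all counts of the 10 genes in both controls and 96.0% and 96.4% in the knockdown. The sum over the 10 genes was 594 and 590 CPM in the controls and 605 and 610 CPM in the knockdown.

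**Figure D1:**
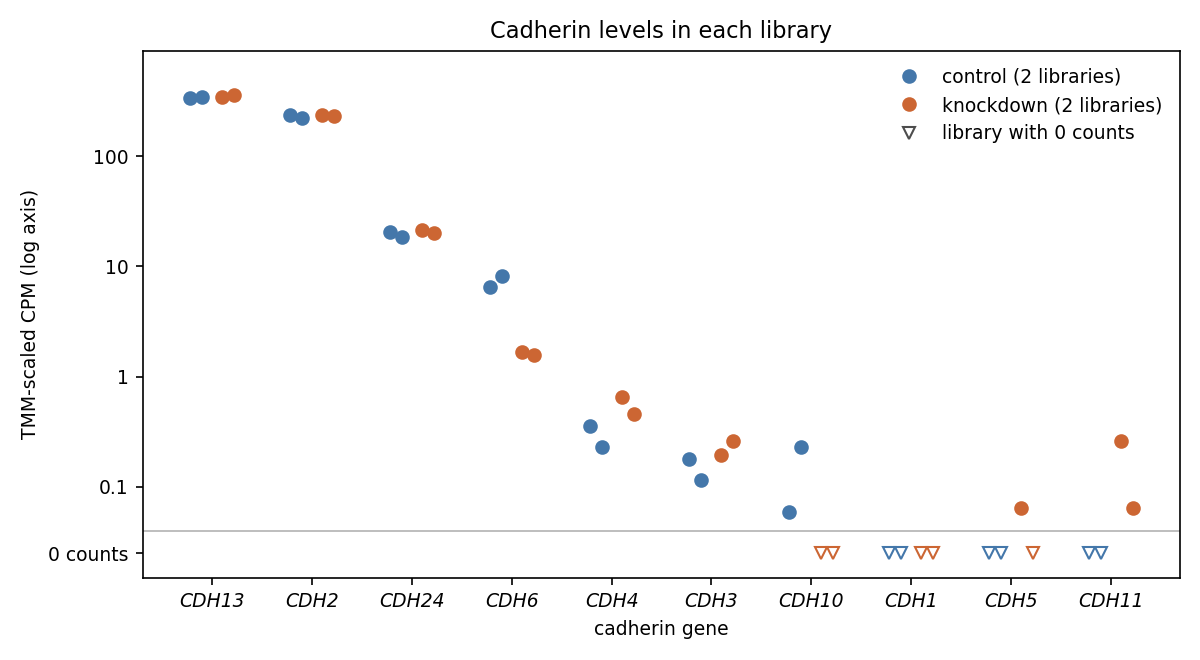
TMM-scaled CPM (log axis) of the 10 cadherin genes in each library, with 2 control and 2 knockdown libraries per gene and open triangles for libraries with 0 counts. CDH13 and CDH2 lie between 223 and 358 CPM in all 4 libraries, and CDH6 goes from 6.56 and 8.20 CPM to 1.68 and 1.56 CPM.

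CDH6, known as K-cadherin from its place in the developing kidney, is a type II classical cadherin. The controls held 110 and 143 CDH6 counts and the knockdown libraries 26 and 24. On the CPM scale these were 6.56 and 8.20 in the controls against 1.68 and 1.56 in the knockdown, or 7.38 ± 1.16 and 1.62 ± 0.0891 (SD, n = 2 each). Both knockdown libraries lay below both controls, and the gap was wider than the spread within either group. The log2 fold change was -2.18 (SE 0.20, 95% interval -2.62 to -1.75), a 4.54-fold lower level. Of all tested genes, 14 (0.101%) had a larger fall. With each library left out in turn the log2 fold change of CDH6 ran from -2.33 to -2.02, and it was called each time. In bulk RNA, fewer cells with CDH6 transcripts and less CDH6 RNA per cell cannot be told apart.

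CDH6 was also a small part of the cadherin reads. It took 1.10% (95% Wilson interval 0.916 to 1.33) and 1.39% (1.18 to 1.64) of the counts of the 10 genes in the controls. In the knockdown it took 0.278% (0.190 to 0.408) and 0.255% (0.172 to 0.380). Such intervals hold the counting error of a single library and no spread between libraries. PCR copies were not told from separate molecules, so the intervals may be too narrow even for counting error. There were 35.6 and 27.2 CDH2 counts for each CDH6 count in the controls against 141 and 147 after knockdown.

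The 3 tested, named genes whose profile over the 4 libraries lay nearest to that of CDH6 were AKR1C2, PSG4 and CYP4B1. Unnamed loci, with symbols such as LOC, LINC or KIAA, were left out of the search. The measure was the Euclidean distance between log2 CPM values centred on each gene's mean, which was 0.095 for AKR1C2, 0.29 for PSG4 and 0.30 for CYP4B1, among genes with a mean of at least 5 CPM in the higher group. AKR1C2, an aldo-keto reductase of steroid hormones, had control counts of 72 and 101 against 18 and 17 after knockdown. PSG4, a pregnancy-specific glycoprotein, had 72 and 108 against 17 and 20, and both genes have near-identical relatives, so their counts are uncertain. CYP4B1, a cytochrome P450 gene, had 256 and 278 against 46 and 45. The distance takes in the size of the fall, so genes that fell by a like amount lie near.

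CDH2, or N-cadherin, holds together neural and mesenchymal cells, and was the leading cadherin with a catenin-binding tail in SUM159. Its counts were 3918 and 3890 in the controls against 3660 and 3534 after knockdown. As CPM these were 234 and 223 against 237 and 229, so the groups overlapped. The log2 fold change was 0.030 (SE 0.030, 95% interval -0.034 to 0.095) and was not called, and its sign turned with scaling by library size alone (-0.015) and without control replicate 2 (-0.0063).

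RefSeq promoter windows of GRCh38.p14 were held for CDH2, CDH4 and CDH10 (3 of the 10 genes, 5 windows) and not for CDH1, CDH3, CDH5, CDH6, CDH11, CDH13 or CDH24. The 3 windows whose downstream bases occur in a GENCODE transcript of the gene are shown as the 250 bases before the start, because they set a well-counted cadherin beside a pair at or near 0 counts. Such a match can also come from an alternative start inside the gene, so a window shown need not be the main promoter. The CDH4 window shown lies downstream of the CDH4 window that is not shown. Capitals mark each CG dinucleotide, the site of DNA methylation in promoters.
CDH2, chr18:28177131-28177380, minus strand: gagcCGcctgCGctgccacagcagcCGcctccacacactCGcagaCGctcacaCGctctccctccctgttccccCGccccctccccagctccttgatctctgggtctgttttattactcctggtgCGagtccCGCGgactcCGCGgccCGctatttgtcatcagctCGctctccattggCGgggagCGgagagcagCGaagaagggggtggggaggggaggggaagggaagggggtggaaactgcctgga
CDH4, chr20:61599511-61599760, plus strand: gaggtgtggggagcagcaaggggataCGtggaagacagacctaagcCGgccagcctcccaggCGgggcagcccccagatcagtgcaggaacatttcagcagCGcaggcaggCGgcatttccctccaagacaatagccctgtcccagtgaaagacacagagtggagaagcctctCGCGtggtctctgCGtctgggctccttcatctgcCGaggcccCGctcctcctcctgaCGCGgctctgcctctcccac
CDH10, chr5:24644979-24645228, minus strand: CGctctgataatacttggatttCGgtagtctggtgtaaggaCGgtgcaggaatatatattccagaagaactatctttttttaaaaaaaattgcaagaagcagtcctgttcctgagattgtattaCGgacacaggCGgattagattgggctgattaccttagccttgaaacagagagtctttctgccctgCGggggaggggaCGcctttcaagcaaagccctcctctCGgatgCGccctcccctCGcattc

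The CDH2 window held 17 CG dinucleotides at 66.0% G and C. The CDH4 window held 12 at 63.6%, and the CDH10 window 10 at 47.6%. Of 35116 windows of the same length, 39.0% held at least 17, 48.5% at least 12 and 52.2% at least 10, so none of these windows was unusual in that respect. The E-box CACCTG and its reverse complement CAGGTG, the letters bound by SNAI and ZEB repressors, were searched as well, which covers both strands. They occurred in 0 of the 3 windows shown, in 1 window of CDH4 that is not shown, and in 17.5% of all windows. Neither motif overlaps the other, and no methylation or binding was measured in these libraries.

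CDH13, or T-cadherin, is a receptor for adiponectin and low-density lipoprotein on vessel and muscle cells. It had the most counts of the 10 genes, 5592 and 5922 in the controls against 5310 and 5521 after knockdown. As CPM these were 333 and 340 against 344 and 358, or 336 ± 4.37 and 351 ± 10.2 (SD, n = 2 each). Both knockdown libraries lay above both controls, by a gap smaller than that between the knockdown libraries themselves. The log2 fold change was 0.061 (SE 0.026, 95% interval 0.0059 to 0.12), which was not called. Without knockdown replicate 1 it was 0.089 and was called higher.

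CDH24, a type II cadherin that binds catenins, had control counts of 340 and 322 against 327 and 307 after knockdown. As CPM these were 20.3 and 18.5 against 21.2 and 19.9, with overlapping groups. The log2 fold change was 0.086 (SE 0.087, 95% interval -0.10 to 0.27) and was not called. Whether counting used strand is not known here, so antisense RNA at CDH2 and CDH13 (CDH2-AS1, CDH13-AS1) cannot be told from the cadherin transcripts.

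The remaining 6 genes were at or near the limit of detection, where 3 counts correspond to 0.172 to 0.195 CPM in a single library. CDH1, the epithelial cadherin, had 0 counts in all 4 libraries, which allows up to those levels in a single library taken alone. Over the 2 libraries of a group, 3 counts correspond to 0.0877 CPM in the controls and 0.0972 CPM in the knockdown. CDH5, or VE-cadherin, the junction protein of blood vessel endothelium, had 1 count in knockdown replicate 1 and 0 in the other libraries. Of 10 endothelial markers, TEK and TIE1 had at most 3 counts in every library and PECAM1 at most 6. Others had more, with KDR at 28 and 17 counts in the controls against 19 and 8 in the knockdown. EGFL7 had 27 and 22 against 12 and 26, and ROBO4 had 16 and 15 against 20 and 16. KDR, EGFL7 and ROBO4 were tested and not called. The endothelial markers summed to 12.5 to 14.1 CPM in the controls and 18.0 to 18.2 CPM in the knockdown, most of it ERG, the 1 of 4 tested that was called, higher.

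CDH3, or P-cadherin of basal and myoepithelial cells, had control counts of 3 and 2 against 3 and 4 after knockdown. The ratio of the pooled counts after scaling was 1.55, with a 95% exact binomial interval of 0.424 to 6.20. CDH4, the retinal R-cadherin, had 6 and 4 counts against 10 and 7, a ratio of 1.89 (0.815 to 4.61). Neither difference was detectable at this depth.

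CDH10, a type II cadherin of the brain, had 1 and 4 counts in the controls and 0 in both knockdown libraries. The exact upper limit of its ratio was 1.21, so a difference was not detectable at this depth. CDH11, the osteoblast cadherin that also marks mesenchymal cells, had 0 counts in both controls and 4 and 1 in the knockdown. The exact lower limit of its ratio was 1.02, for counting error only, and its mean lay under 3 counts per library in both groups, so no fold is given. With no low-count filter, CDH6 was still the single gene of the 10 to be called.

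Between genes, levels are compared as CPM per kilobase of the longest GENCODE protein-coding transcript. On that scale the control order was CDH2 (52.7 ± 1.72), CDH13 (41.8 ± 0.543), CDH24 (5.45 ± 0.360) and CDH6 (0.871 ± 0.137; SD, n = 2 for each), with no overlap between neighbours. CDH4 (0.045), CDH10 (0.042) and CDH3 (0.030) followed and overlapped each other. The order of the first 4 was the same in the knockdown, with CDH2 at 53.8, CDH13 at 43.6, CDH24 at 5.78 and CDH6 at 0.191 CPM per kilobase. CDH13 exceeded CDH2 in CPM and lay below it per kilobase, since its longest transcript is 8042 bases and that of CDH2 4332 bases.

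Other genes with a CDH symbol, 13 in the file and outside the 10, were read for comparison, and 5 of them were tested. Of these, CDH8 and CDH18 were called higher and CDH12 and CDH15 lower, with a median log2 fold change of -0.23. CDH12, a brain type II cadherin, was more abundant than CDH24, with control counts of 715 and 723 against 573 and 529 after knockdown (log2 fold change -0.23, SE 0.053; adjusted p by edgeR's quasi-likelihood test = 0.00172). Its neighbour by type, CDH18, had 155 and 159 counts against 206 and 181 (0.45, SE 0.12, adjusted p = 0.00458). CDH8 had 38 and 44 counts against 76 and 61 (0.89, SE 0.21, adjusted p = 0.00266). CDH15, the muscle M-cadherin, named after its values were seen, had 21 and 24 against 8 and 7 (-1.42, SE 0.39, adjusted p = 0.00627). Leaving out control replicate 1 raised the adjusted p to 0.0568 for CDH12 and 0.0580 for CDH8, and leaving out control replicate 2 raised that of CDH18 to 0.0617. For CDH15 it was 0.0524 without control replicate 2, 0.0587 without knockdown replicate 2 and 0.102 with DESeq2, so its call was lost in each. Per kilobase, CDH6 exceeded CDH8 in the controls (0.774 and 0.967 against 0.233 and 0.260) and lay below it in the knockdown (0.199 and 0.184 against 0.506 and 0.407), with no overlap in either group.

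**Figure D2:**
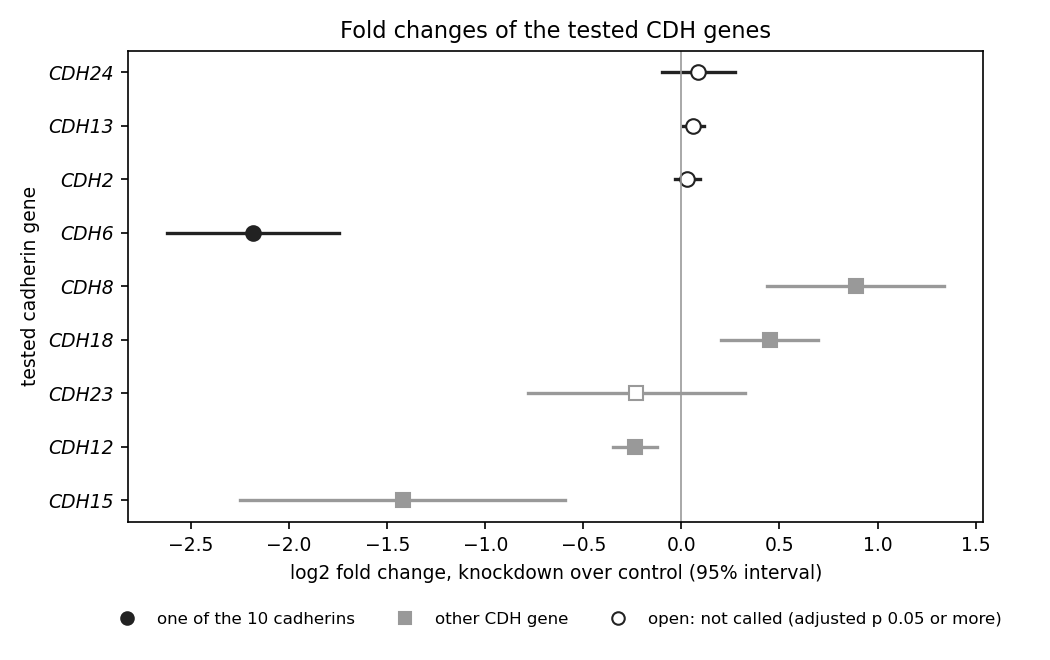
Log2 fold changes (knockdown over control) with 95% intervals of the 9 tested CDH genes, circles for the 10 cadherins described here and squares for other CDH genes, filled where called at an adjusted p under 0.05. CDH6 lies at -2.18, while the intervals of CDH2, CDH13 and CDH24 stay between -0.10 and 0.27.

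Among 10 proteins that bind cadherin tails or link them to actin, 8 were tested, 3 were called higher and 2 lower, with a median log2 fold change of 0.0040. Beta-catenin (CTNNB1) lay at 291 and 293 CPM on average (0.0066, SE 0.030) and p120 catenin (CTNND1) at 153 and 150 CPM (-0.028, SE 0.035), and neither was called. Both were named after their values were seen. Alpha-catenin (CTNNA1) fell from 416 to 344 CPM (-0.27, SE 0.022; adjusted p by edgeR's quasi-likelihood test = 1.10e-07) and plakoglobin (JUP), the beta-catenin relative, from 25.5 to 13.5 CPM (-0.91, SE 0.088, adjusted p = 6.39e-07). Vinculin (VCL), which strengthens the actin link, rose from 52.9 to 86.5 CPM (0.71, SE 0.053, adjusted p = 3.76e-08). The other 2 called higher, named after their values were seen, were afadin (MLLT4, 0.16) and CTNNA3 (2.11), which had 1 and 7 counts in the controls and 16 in each knockdown library. MLLT4 was not called without control replicate 2 (adjusted p by edgeR's quasi-likelihood test = 0.0786). CTNNA3 was not called without control replicate 1 (log2 fold change 1.35, adjusted p = 0.0683) or with DESeq2 (0.0514), and reached 3.95 without control replicate 2. The sign of CTNNB1 turned without control replicate 1 (-0.027) and without knockdown replicate 1 (-0.028).

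Enzymes that mature or cleave cadherins numbered 11 tested of 12, with 3 called higher, 3 lower and a median of 0.0067. Furin (FURIN), a convertase that removes the cadherin propeptide, was called higher by 0.14 in the main test and in 6 of 12 alternatives, and ADAM10, the main sheddase of CDH1 and CDH2, had a log2 fold change of 0.10 (SE 0.046) that was not called, although limma-voom and the replicate block called it. The metalloprotease ADAM9 fell from 137 to 96.6 CPM (-0.50, SE 0.046; adjusted p by edgeR's quasi-likelihood test = 3.68e-07) and the gamma-secretase subunit NCSTN from 78.5 to 52.0 CPM (-0.60, SE 0.049, adjusted p = 1.19e-07). ADAM15 was also called higher, and in 5 of 12 alternatives. PCSK7 was called lower, and in 7 of 12, with the call lost in DESeq2, with no low-count filter and without control replicate 1, control replicate 2 or knockdown replicate 2 (adjusted p = 0.136, 0.148 and 0.263 for the 3 left-out libraries). These, FURIN and ADAM10 were named after their values were seen. The count called higher was 0 with library-size scaling, with DESeq2 and without control replicate 2, and 1 with upper-quartile scaling, with no low-count filter and without control replicate 1.

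Transcription factors that bind E-boxes, several of them repressors of CDH1, were tested in full. Of 10, 5 were called higher and 2 lower, and the median log2 fold change was 0.23. SNAI2 (Slug) rose from 16.2 ± 1.37 to 33.6 ± 1.32 CPM (SD, n = 2 each), with counts of 255 and 299 against 534 and 504 (1.05, SE 0.077; adjusted p by edgeR's quasi-likelihood test = 3.04e-08). ZEB2 rose by 0.24 (adjusted p = 3.13e-04), and TCF12 fell by 0.44 (adjusted p = 5.02e-08). The other 3 called higher were ZEB1, TWIST2 and TCF4 and the other called lower was TCF3, all named after their values were seen. ZEB1 was called in 12 of 12 alternatives, TCF3 in 8, and TWIST2 and TCF4 in 7 each. The count called higher was 3 without control replicate 2, without knockdown replicate 1 and with library-size scaling, and the count called lower was 1 without control replicate 1 or knockdown replicate 2.

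The atypical cadherins, which carry cadherin repeats but no classical tail, had 10 of 12 genes tested, 2 called higher and 5 lower, with a median of -0.28. FAT1 rose from 287 to 410 CPM (0.52, SE 0.023; adjusted p by edgeR's quasi-likelihood test = 1.18e-10). CLSTN1 fell from 306 to 232 CPM (-0.40, SE 0.026, adjusted p = 9.15e-09) and CELSR1, a planar polarity protein, from 68.7 to 45.3 CPM (-0.60, SE 0.045, adjusted p = 4.23e-08). FAT4, named after its values were seen, had counts of 313 and 295 in the controls against 136 and 147 after knockdown (-0.95, SE 0.11). The count called higher was 1 without either control replicate or without knockdown replicate 2. The shares called in these lists are to be read beside 25.1% higher and 24.9% lower for all tested genes.

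**Figure D3:**
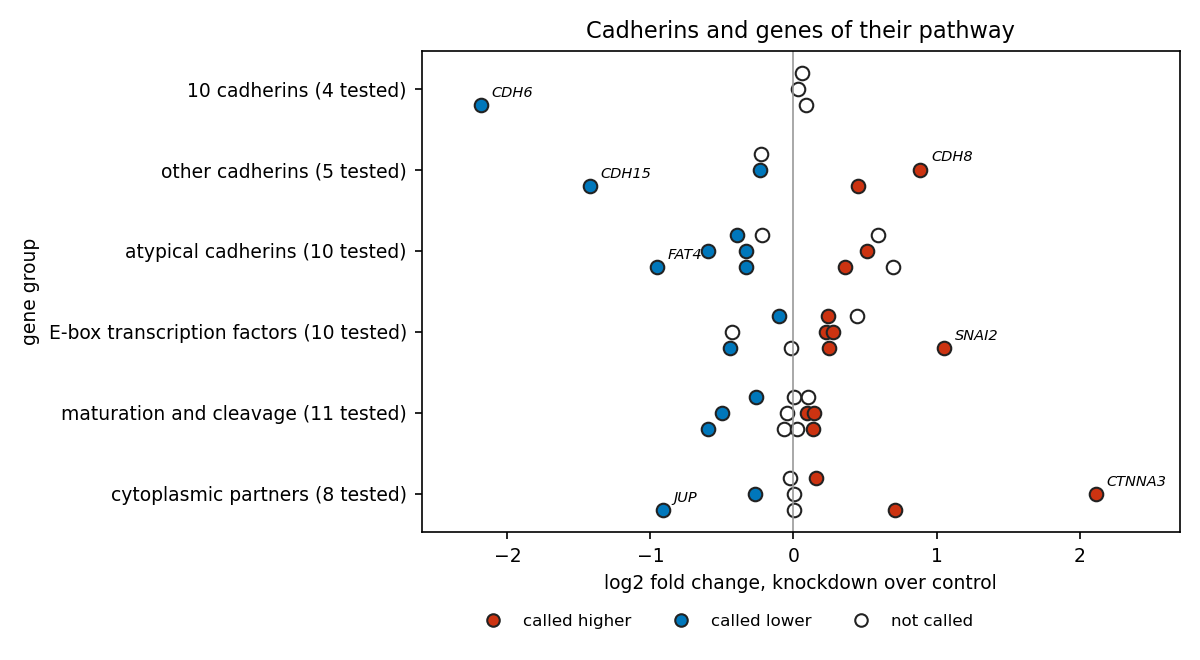
Log2 fold changes (knockdown over control) of the tested genes in each group, 1 circle per gene, red for called higher, blue for called lower and white for not called, with a small vertical offset to separate circles. CDH6 (-2.18) lies apart from the other 3 tested genes of its group, and every group holds genes on both sides of 0.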

How the data were processed

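Estimated counts per gene symbol, not normalised, were deposited by the authors for 4 libraries, and the submitters' processing notes name STAR (an aligner) and the build GRCh37. The sources used here do not name the counting program, the annotation or strandedness. Deposited values were fractional by more than 0.01 in 591 genes and in 0 of the 10 cadherins, and were rounded. Columns were matched to samples by name, with 0 columns unused.

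Groups were compared by the two-sided quasi-likelihood test of edgeR 4.0.16 in R 4.3.3 (TMM scaling, filterByExpr with a minimum count of 10, group as the single term), adjusted over all 13915 tested genes by the Benjamini-Hochberg method and checked on simulated counts. Alternatives were DESeq2 1.42.0, limma-voom (limma 3.58.1), scaling by RLE, by upper quartile or by library size, no filter, a filter of 1 CPM in 2 libraries, a replicate block, each library left out and an adjusted p under 0.01. Transcript lengths came from GENCODE 29 and gene order and promoters from RefSeq, both GRCh38, so no coordinates were joined to counts.

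The cadherins and gene lists were chosen with earlier results of these data known. The naming rule took SPEN, the 10 cadherins and, from each list, the called genes with the 3 smallest adjusted p. It also took the 3 nearest profiles to CDH6, leaving out unnamed loci. Running the alternatives on the lists and on genes named after their values were seen was added after seeing the data. Protein sequences were not analysed here. Values of some listed genes are not reported here.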

Additional observations from a re-analysis of the deposited data

How the results depend on the processing

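Across 12 alternatives the log2 fold change of CDH6 ran from -2.33 to -2.02 and was called in each, that of CDH24 from 0.016 to 0.15 and in none, and that of CDH13 from 0.015 to 0.089 and in 1 (adjusted p = 0.0245 without knockdown replicate 1). CDH2 was not called in any, and its sign turned with library-size scaling (-0.015) and among the fits with a library left out (-0.0063 to 0.064). With a library left out, 0 to 1 of the 10 cadherins were called higher and 1 lower. CTNNB1, not called in any, turned in sign with upper-quartile scaling (-0.0031), library-size scaling (-0.039) and among the fits with a library left out (-0.028 to 0.040). The replicate numbers share only a number in the labels. With the replicate block, 3609 genes were called higher and 3602 lower, against 3499 and 3471, and CDH6 alone of the 10 was called. The correlation of the replicate differences between groups was 0.18.

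DESeq2 called 2159 genes lower against 3471. Among the other CDH genes it called 1 higher and 0 lower (CDH12 adjusted p = 0.0677, CDH18 0.0600), among atypical cadherins 1 higher, among maturation and cleavage genes 0 higher, and among E-box factors 3 higher and 1 lower. Library-size scaling left 0 maturation genes and 3 E-box factors higher, upper-quartile scaling 1 maturation gene, and no low-count filter 1 maturation gene and 3 E-box factors higher and 1 lower. An adjusted p under 0.01 left 0, 3 and 1 of these. With a library left out, the counts ran from 1 to 2 higher and 1 to 2 lower for other CDH genes, 1 to 3 higher for atypical cadherins, 0 to 2 higher for maturation genes, and 3 to 6 higher and 1 to 2 lower for E-box factors. The causes were not tested. With the median transcript length, control levels were 309 for CDH2, 184 for CDH13, 6.74 for CDH24 and 1.34 CPM per kilobase for CDH6, in the same order. Depth limits the 6 untested cadherins, and 2 libraries per group limit all tests.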

Other observations

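Several of these cadherin genes stand next to one another in the RefSeq order of GRCh38.p14, so the neighbours' values were read for description. On chromosome 5, CDH10, CDH9 and CDH6 follow each other among protein-coding genes present in the file. CDH9 had control counts of 1 and 0 against 2 and 3 after knockdown. DROSHA, the microRNA-processing nuclease on the other side of CDH6, had control counts of 2082 and 2133 against 2194 and 2159 after knockdown (log2 fold change 0.20, SE 0.037; adjusted p by edgeR's quasi-likelihood test = 4.77e-04), and the next gene, C5orf22, had a log2 fold change of -0.080 that was not called.

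On chromosome 16, CDH8, CDH11 and CDH5 are consecutive. CDH8 was called higher. CDH11 (0 and 0 control counts against 4 and 1) and CDH5 (0 and 0 against 1 and 0) were too low to be tested, so nothing is read from their place beside it. CDH3 and CDH1 are also adjacent on that chromosome. The genes around them were transcribed, with 726 and 756 control counts for ZFP90 and 772 and 785 for TANGO6, beside 0 counts for CDH1. Both were called lower in the knockdown (log2 fold change -0.30 and -0.48; adjusted p by edgeR's quasi-likelihood test = 1.66e-04 and 1.07e-06).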
